A study of Mus musculus with 12 samples.

Results

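Genes of fatty acid oxidation, ketogenesis and the PPAR-alpha programme were followed in mouse liver RNA. The members were 42 genes taken by their symbol in the platform annotation, each read on the probe set with the highest mean over the 12 arrays. Of the 42, 39 had a probe set listed to that gene alone, out of 12393 genes named in this way, and all 39 passed the filter on low values that left 8469 genes for testing. Acsl1 and Ucp2 had no such probe set, and Cyp4a10 was read only on a probe set listed to Cyp4a31 as well; these 3 genes were not tested. The rule used gene names and the mean signal and no measured difference, but the list was chosen with earlier results of these data known.

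The 4 groups of 3 adult male C57BL6/J mice, 8 weeks old, were liver-null mice given acetaminophen (APAP), liver-null mice given saline, wild-type mice given APAP and wild-type mice given saline. In liver-null mice a conditional-null allele of Txnrd1, the cytosolic thioredoxin reductase, is disrupted by albCre, a Cre recombinase driven by the albumin promoter and so active in hepatocytes; the other cells of the liver keep the gene. Whether the wild-type mice carried the Cre or the unrecombined allele is not given in the sources used here. APAP was injected into the peritoneum at 100 mg/kg, and every liver was taken 8 h after the injection. Each liver came from a separate mouse and was hybridised to its own Affymetrix array. By its title, the series is about the metabolism of livers without hepatocyte Txnrd1 and their resistance to APAP.

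The deposited values are on a log2 scale, so a difference of 1 is a doubling of signal; all levels and differences below are log2 values unless a fold is named. Txnrd1 itself lay at 10.26 to 10.58 in the 6 livers labelled liver-null and at 9.43 to 9.81 in the 6 labelled wild-type, higher and not lower (difference over both treatments 0.75, limma adjusted p = 0.000858). Where its probes lie relative to the deleted part is not known here, so this reading does not check the labels, and groups are called as labelled throughout. On 4 arrays, 1 in each group (liver-null APAP mouse 17, liver-null saline mouse 16, wild-type APAP mouse 14 and wild-type saline mouse 10), the upper quartile of all values was 5.49 to 5.58, against 5.73 to 5.85 on the other 8. The labels do not name this set of 4 arrays; because each group holds 1 of them, a fit with the set as a term leaves every difference as it is and changes only its error. The 6 hepatocyte markers on the array averaged 12.55 to 12.76 in every liver. All 5 skeletal muscle markers, 4 of 5 adipocyte markers and 3 of 4 acinar pancreas markers stayed below the median of the array on all 12 arrays.

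PPAR-alpha, encoded by Ppara, is a nuclear receptor that binds fatty acids and, with its partner RXR, switches on the liver's programme for burning fat. Long acyl chains are bound by carrier proteins, coupled to coenzyme A, moved into mitochondria on carnitine and shortened by beta-oxidation, whose electrons pass through the electron transfer flavoprotein to the respiratory chain. Peroxisomes shorten very long and branched chains, cytochromes of the Cyp4a family oxidise the omega end, thioesterases release free acids again, and surplus acetyl-CoA leaves the hepatocyte as ketone bodies. The programme is best known in liver for its rise during fasting.

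The first question was which members differed between the genotypes. Averaged over both treatments, Vnn1 was higher and Fabp2, Cyp4a31 and Crot were lower in livers labelled liver-null. These were 4 of 39 members (10.3%) at an adjusted p under 0.05 in limma, beside 4.46% of all 8469 genes. The remaining 35 members, including Ppara, Cpt1a and Fabp1, did not pass. Of the 39 members 17 lay above 0 and 22 below, with a median difference of -0.06, beside -0.01 for all genes; the median size of a difference without its sign was 0.14, beside 0.11. For 26 members the 95% interval of the difference stayed within 1.5-fold either way, and for 34 within 2-fold. With the set of 4 arrays as a term, 9 members passed (23.1%), beside 10.4% of all genes: Acot3, Pdk4 and Vnn1 were higher, and Hadha, Etfdh, Crot, Bdh1, Fabp2 and Cyp4a31 were lower. Of these, Pdk4 met the filter on low values only through the livers labelled liver-null. All 6 livers labelled liver-null lay beyond all 6 labelled wild-type for 5 members (12.8%), namely Vnn1, Hadha, Crot, Fabp2 and Cyp4a31, beside 4.36% of all genes.

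**Figure D1:**
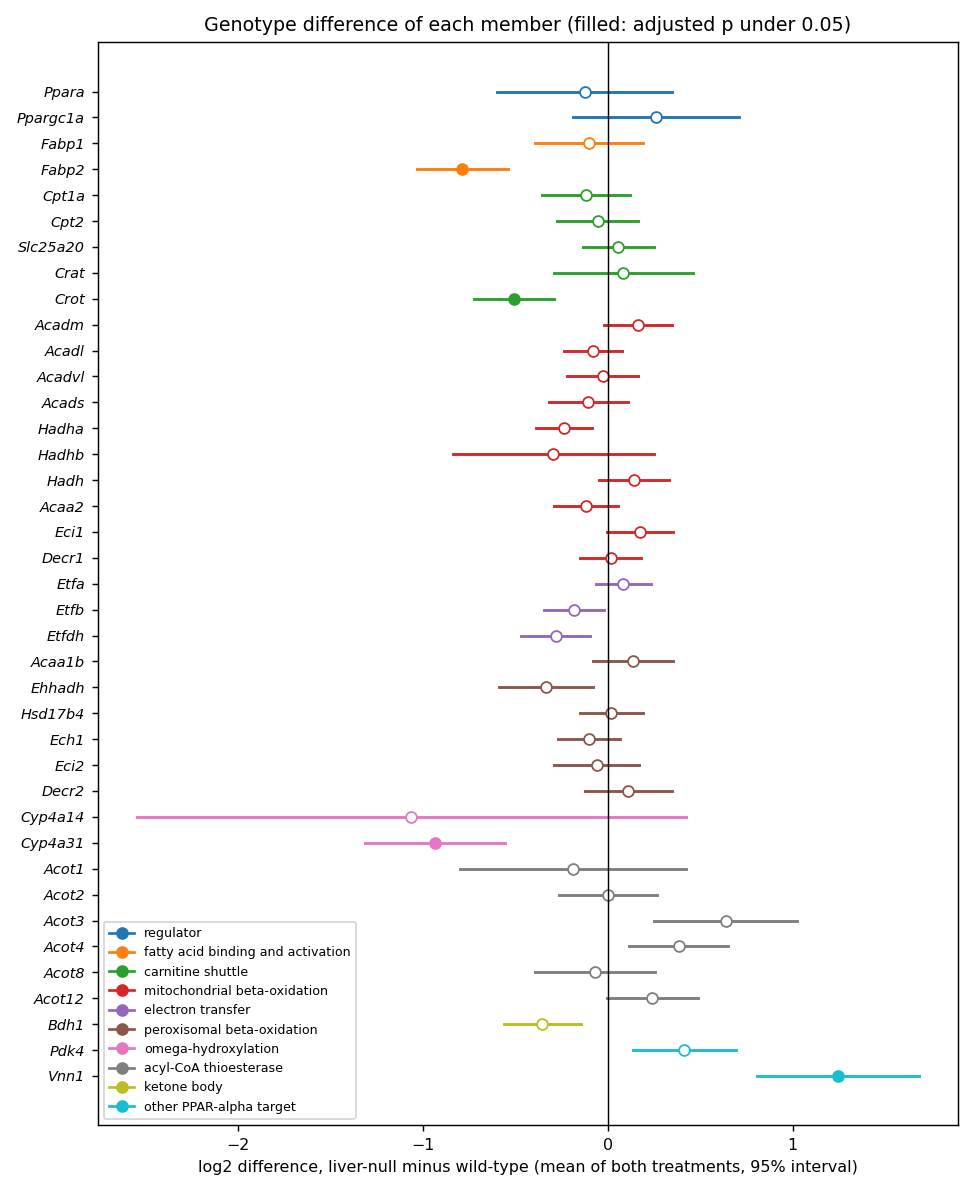
Difference between livers labelled liver-null and wild-type for each of the 39 members, in log2 units on the horizontal axis, with genes grouped by role down the page; points are the mean difference over both treatments, bars the 95% interval, and filled points have an adjusted p under 0.05. Vnn1 stands at 1.24 on the right, Fabp2, Cyp4a31 and Crot lie left of 0, and most other bars cross 0.

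Within a single treatment fewer members passed. In saline livers 1 of 39 members, Vnn1, passed, beside 0.638% of all genes, and after APAP 2 members passed, Fabp2 and Cyp4a31, both lower in livers labelled liver-null, beside 0.768% of all genes. With the set of 4 arrays as a term, 2 passed in saline (Vnn1 and Fabp2; 2.87% of all genes) and 3 after APAP (Crot, Fabp2 and Cyp4a31; 2.18% of all genes). Both calls after APAP lay near the threshold: leaving out 1 array at a time ended that of Cyp4a31 for 8 of 12 arrays and that of Fabp2 for 9 of 12. The genotype groups did not overlap for 13 members in saline (33.3%, beside 15.2% of all genes) and for 12 after APAP (30.8%, beside 13.9%). The saline and APAP comparisons use different livers. They share the estimate of spread in limma, and each includes arrays of the set of 4, so they are not fully independent.

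**Figure D2:**
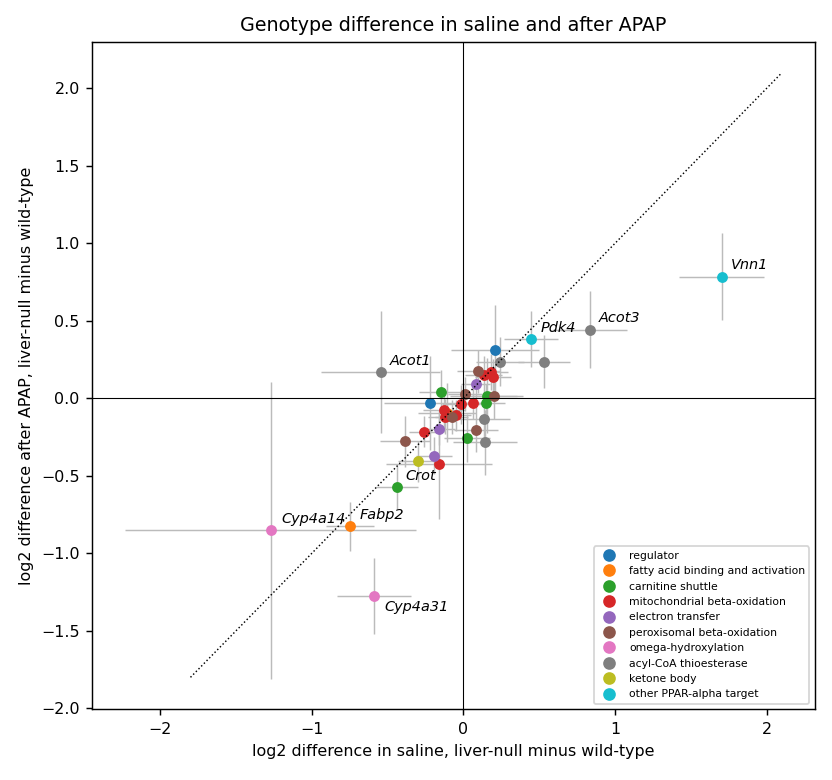
Genotype difference of each member in saline (horizontal axis) and after APAP (vertical axis), both as liver-null minus wild-type in log2 units; grey bars are 1 standard error, colours mark roles and the dotted line marks equal differences. Vnn1 lies far right at 1.70 in saline and 0.78 after APAP, Cyp4a31 lies low at -1.28 after APAP, and Fabp2 and Crot lie near the dotted line.

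The regulators themselves did not pass in any comparison of the main fit. Among the alternative fits, Ppargc1a passed only over both treatments with array weights. Ppara read 9.30, 8.82 and 7.76 in liver-null saline livers, against 8.58, 9.01 and 8.95 in wild-type saline livers. After APAP it read 9.16, 8.92 and 8.71 in liver-null livers and 9.04, 8.86 and 8.995 in wild-type livers. The groups overlapped under both treatments, and the lowest reading of all was a single liver-null saline liver, mouse 16. The genotype difference of Ppara over both treatments was -0.13, with a 95% interval of -0.60 to 0.35. Ppargc1a encodes a coactivator that works with PPAR-alpha and other receptors to raise mitochondrial genes. It read 3.56, 4.40 and 3.65 in liver-null saline livers, 3.84, 3.50 and 3.65 in wild-type saline livers, with 4.19, 4.40 and 3.26 in liver-null APAP livers and 3.63, 3.86 and 3.42 in wild-type APAP livers. These groups overlapped too, and the difference over both treatments was 0.26 (adjusted p = 0.612).

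Among the fatty acid binding proteins, Fabp2 was lower in livers labelled liver-null, while Fabp1 did not pass. Fabp2 encodes the intestinal-type fatty acid binding protein, best known from enterocytes. In saline it read 9.19, 8.79 and 9.25 in liver-null livers, against 9.82, 9.96 and 9.69 in wild-type livers. After APAP the readings were 8.79, 8.87 and 9.16 in liver-null livers, against 9.58, 9.77 and 9.95 in wild-type livers. Every liver labelled liver-null was below every wild-type liver. Fabp2 was 1.73-fold lower over both treatments (log2 difference -0.79, SE 0.11, 95% interval -1.03 to -0.54, limma adjusted p = 0.00323). The difference was -0.75 in saline (adjusted p = 0.059) and -0.83 after APAP (adjusted p = 0.0426). Fabp1, the abundant liver-type binding protein and a textbook PPAR-alpha target, read 13.23, 13.59 and 13.85 in liver-null saline livers, against 13.45, 13.64 and 13.91 in wild-type saline livers. With APAP it read 13.46, 13.62 and 13.87 in liver-null livers and 13.52, 13.75 and 13.97 in wild-type livers. The groups overlapped, and in each group the readings rose in the order of mouse number, with the highest on the array of the set of 4. The genotype difference of Fabp1 on this probe set was -0.10 (95% interval -0.40 to 0.19). Its limma adjusted p was 0.798, and 0.475 with the set of 4 arrays as a term. A dimmer probe set of the gene read 13.20 to 13.47 in livers labelled liver-null and 13.56 to 13.66 in wild-type livers, with no overlap. Its difference was -0.23 (adjusted p = 0.107 with every probe set tested, and 0.0408 with the set of 4 arrays as a term). Both probe sets read near the top of the array's range, where a difference may be compressed.

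The DNA just before the start of these genes was read from the RefSeq promoter table of build GRCm38.p6. It is shown for Fabp2 and Crot, which were lower in livers labelled liver-null, for Fabp1, which carries the closest match to a PPAR-alpha element among the members printed, and for Hadhb, whose window covers most of the stretch that it shares with Hadha. Each window is the 250 bases before the start site, 5′ to 3′ on the gene's strand. Capitals mark the best match, with at most 3 mismatches, to the direct repeat bound by PPAR-alpha with RXR (AGGTCA, then any base, then AGGTCA), searched on both strands. The windows are chr3:122894822-122895071 (plus strand) for Fabp2, chr6:71199629-71199878 (plus strand) for Fabp1, chr5:8997147-8997396 (minus strand) for Crot and chr5:30155003-30155252 (plus strand) for Hadhb.
Fabp2: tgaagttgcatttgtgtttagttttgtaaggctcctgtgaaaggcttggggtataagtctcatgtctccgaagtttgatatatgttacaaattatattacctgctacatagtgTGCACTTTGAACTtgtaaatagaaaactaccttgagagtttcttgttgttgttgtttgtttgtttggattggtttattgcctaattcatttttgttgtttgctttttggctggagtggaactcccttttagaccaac
Fabp1: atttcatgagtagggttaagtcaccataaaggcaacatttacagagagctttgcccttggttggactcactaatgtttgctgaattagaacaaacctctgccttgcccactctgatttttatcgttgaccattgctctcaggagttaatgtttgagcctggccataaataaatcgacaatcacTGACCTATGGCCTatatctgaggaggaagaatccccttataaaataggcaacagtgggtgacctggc
Crot: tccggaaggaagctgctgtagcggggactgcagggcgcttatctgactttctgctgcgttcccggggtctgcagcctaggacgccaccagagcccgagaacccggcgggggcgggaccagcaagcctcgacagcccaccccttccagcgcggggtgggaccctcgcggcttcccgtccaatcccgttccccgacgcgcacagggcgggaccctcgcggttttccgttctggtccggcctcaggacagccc
Hadhb: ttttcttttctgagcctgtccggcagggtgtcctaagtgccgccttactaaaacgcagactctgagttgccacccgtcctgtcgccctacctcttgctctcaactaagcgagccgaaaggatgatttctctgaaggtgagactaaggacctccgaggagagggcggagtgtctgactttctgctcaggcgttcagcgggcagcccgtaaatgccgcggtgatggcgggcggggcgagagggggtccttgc
In Fabp1 the match differs from the repeat at 1 base, lies on the opposite strand and begins 67 bases before the start site. In Fabp2 the best match has 3 mismatches, on the opposite strand, and Crot and Hadhb have none within 3. Of the 42 members 34 had a window in the table, 37 windows in all. A match with at most 1 mismatch was found in 2 of the 37 (5.41%, Fabp1 and Acot12), beside 0.484% of all 32851 windows. With at most 3 mismatches it was found in 10 of 37 (27.0%), beside 21.3% of all windows. A match is only a string of letters, and its absence says nothing about binding elsewhere. On the probe sets used here, the 2 genes with the close match, Fabp1 and Acot12, did not pass in any comparison. The dimmer Fabp1 probe set described above limits that statement, and a link between the match and the readings was not tested.

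In the carnitine shuttle, Crot was lower and the 4 other tested members, including the gatekeeper Cpt1a, did not pass. Crot encodes the peroxisomal carnitine octanoyltransferase, which passes chain-shortened fatty acids from peroxisomes to carnitine for export. It read 10.73, 10.56 and 10.83 in liver-null saline livers, against 11.20, 11.20 and 11.05 in wild-type saline livers. In APAP livers the values were 10.57, 10.70 and 10.81 in liver-null livers, against 11.28, 11.02 and 11.50 in wild-type livers. All 6 livers labelled liver-null were below all 6 labelled wild-type. Crot was 1.42-fold lower over both treatments (log2 difference -0.51, SE 0.10, 95% interval -0.72 to -0.29, limma adjusted p = 0.0146), with -0.44 in saline (adjusted p = 0.202) and -0.57 after APAP (adjusted p = 0.104). Cpt1a, the outer-membrane transferase that controls entry of long chains into mitochondria, read 9.49 to 10.07 in livers labelled liver-null and 9.55 to 10.06 in wild-type livers, a difference of -0.12 (95% interval -0.35 to 0.12). Cpt2 and the carrier Slc25a20, which complete the mitochondrial shuttle, had differences of -0.05 and 0.06. Crat, the carnitine acetyltransferase, read 5.79, 5.26 and 5.05 in liver-null saline livers, 4.91, 5.41 and 5.32 in wild-type saline livers, with 5.32, 5.59 and 4.67 in liver-null APAP livers and 5.11, 5.20 and 5.23 in wild-type APAP livers. Its groups overlapped (difference 0.08, adjusted p = 0.883).

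Of the 10 members of mitochondrial beta-oxidation none passed: 4 lay above 0 and 6 below, between -0.29 for Hadhb and 0.17 for Eci1. Hadha and Hadhb encode the alpha and beta subunits of the mitochondrial trifunctional protein, which carries out the last steps of beta-oxidation on long chains. The genes lie head to head on chromosome 5, with 272 bases between their starts in build GRCm38.p6. Hadha read 9.76, 9.78 and 9.71 in liver-null saline livers, against 10.01, 10.12 and 9.91 in wild-type saline livers. The livers given APAP had 9.70, 9.76 and 9.79 in liver-null livers, against 9.90, 10.02 and 9.98 in wild-type livers. No liver labelled liver-null reached the lowest wild-type liver, yet the difference was small at -0.24 (95% interval -0.39 to -0.09, adjusted p = 0.0805, and 0.0294 with the set of 4 arrays as a term). Hadhb read 9.84, 10.44 and 11.17 in liver-null saline livers, 10.18, 10.55 and 11.20 in wild-type saline livers, with 10.06, 10.37 and 10.71 in liver-null APAP livers and 10.46, 10.68 and 11.28 in wild-type APAP livers. In every group the highest Hadhb reading was on the array of the set of 4, and the genotype groups overlapped (difference -0.29, adjusted p = 0.645). A dimmer Hadhb probe set gave -0.28 (adjusted p = 0.066 with every probe set tested, and 0.0119 with the set of 4 arrays as a term). The acyl-CoA dehydrogenases, which open each round on chains of different length, had differences of 0.16 for Acadm, -0.08 for Acadl, -0.03 for Acadvl and -0.10 for Acads. Acaa2, the thiolase that closes the round, read 11.42 to 11.68 in livers labelled liver-null and 11.49 to 11.75 in wild-type livers.

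Decr1, the dienoyl-CoA reductase needed for unsaturated chains, gave different answers on its probe sets. The brighter probe set, used for the gene here, read 10.51 to 10.71 in livers labelled liver-null and 10.41 to 10.69 in wild-type livers, a difference of 0.02. The dimmer probe set read 6.61, 6.62 and 6.52 in liver-null saline livers, against 7.26, 7.30 and 6.77 in wild-type saline livers. After APAP it read 6.33, 6.72 and 6.71 in liver-null livers, against 6.98, 7.58 and 7.27 in wild-type livers. On this probe set every liver labelled liver-null was below every wild-type liver, with a difference of -0.61 (adjusted p = 0.0253 in a limma fit over 13124 probe sets, added after the values were seen). Which transcripts each probe set reads is not known here, so no change is given for the gene. Of 39 members 15 had more than 1 probe set, and in that fit 5 of the members' 58 probe sets were called over both treatments (8.62%), beside 3.78% of all 13124: those of the 4 members named above and of Decr1.

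In electron transfer, where Etfa and Etfb form the flavoprotein and Etfdh hands its electrons to ubiquinone, none of the 3 members passed. Etfdh read 9.84, 9.47 and 9.50 in liver-null saline livers and 9.84, 9.88 and 9.67 in wild-type saline livers, which overlapped. After APAP the readings were 9.53, 9.59 and 9.53 in liver-null livers, against 9.95, 9.96 and 9.87 in wild-type livers, with no overlap. The difference over both treatments was -0.28 (adjusted p = 0.0931, and 0.0325 with the set of 4 arrays as a term). Etfb read 10.30, 10.24 and 10.23 in liver-null saline livers, 10.31, 10.52 and 10.44 in wild-type saline livers, with 10.15, 10.21 and 10.23 in liver-null APAP livers and 10.30, 10.36 and 10.53 in wild-type APAP livers. Within each treatment the genotype groups of Etfb did not overlap, with a difference of -0.18 (adjusted p = 0.228), while Etfa stood at 0.08.

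None of the 6 peroxisomal members passed, and 3 lay on each side of 0. Ehhadh, the peroxisomal bifunctional enzyme and a textbook PPAR-alpha target, read 9.39, 9.46 and 9.89 in liver-null saline livers, against 10.10, 9.87 and 9.93 in wild-type saline livers. With APAP it read 9.43, 9.82 and 9.69 in liver-null livers and 9.76, 9.88 and 10.14 in wild-type livers. The groups overlapped under both treatments, with a difference of -0.33 (adjusted p = 0.147). Ech1, a dienoyl-CoA isomerase, read 10.53, 10.22 and 10.41 in liver-null saline livers, 10.40, 10.52 and 10.47 in wild-type saline livers, with 10.58, 10.46 and 10.40 in liver-null APAP livers and 10.59, 10.62 and 10.59 in wild-type APAP livers. Its difference over both treatments was -0.10, with overlap in saline and none after APAP. The thiolase Acaa1b had a difference of 0.14, and Hsd17b4, Eci2 and Decr2 had 0.02, -0.06 and 0.11.

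Of the omega-hydroxylases, Cyp4a31 was lower in livers labelled liver-null and Cyp4a14 varied widely from liver to liver. Cyp4a genes encode cytochromes that oxidise the omega end of fatty acids, and in mouse liver they are among the genes most strongly induced through PPAR-alpha. In saline Cyp4a31 read 3.75, 2.91 and 3.36 in liver-null livers, against 3.99, 3.87 and 3.93 in wild-type livers. In APAP livers the values were 3.07, 3.56 and 2.81 in liver-null livers, against 4.62, 4.01 and 4.64 in wild-type livers. Every liver labelled liver-null was below every wild-type liver. On this probe set Cyp4a31 was 1.91-fold lower over both treatments (log2 difference -0.93, SE 0.17, 95% interval -1.31 to -0.55, limma adjusted p = 0.0115). Its mean reading was 3.71, near the array medians, and the brighter probe set shared with Cyp4a10, described below, overlapped between the genotypes. The difference was -0.59 in saline (adjusted p = 0.347) and -1.28 after APAP (adjusted p = 0.0426). Within the 8 arrays outside the set of 4 the difference over both treatments was -0.80 and did not pass (adjusted p = 0.0886).

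Cyp4a14 spanned 4.44 log2 units across the 12 livers, the widest range of any member. It read 8.46, 5.28 and 9.72 in liver-null saline livers and 8.52, 9.06 and 9.70 in wild-type saline livers. The livers given APAP had 7.13, 9.63 and 7.33 in liver-null livers and 8.37, 8.79 and 9.47 in wild-type livers. Low and high readings both occurred among livers labelled liver-null, which therefore overlapped the wild-type livers. The difference of -1.06 had a 95% interval of -2.55 to 0.42 (adjusted p = 0.498), so at 6 livers a genotype a change of 2-fold could not be told from none. The probe set shared by Cyp4a31 and Cyp4a10 read 10.31, 8.49 and 10.81 in liver-null saline livers, against 10.05, 10.01 and 10.54 in wild-type saline livers. After APAP it read 8.68, 10.22 and 9.90 in liver-null livers and 10.06, 10.27 and 10.78 in wild-type livers. These groups overlapped as well (difference -0.55). Liver-null saline mouse 5 had the lowest reading of all 12 livers on the Cyp4a14 and on the shared probe set. Cyp4a14, Cyp4a10 and Cyp4a31 lie next to each other on chromosome 4 with no other protein-coding gene between them, and their probe sets may bind each other's transcripts.

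The thioesterases, which split acyl-CoA into free acid and coenzyme A, did not pass as genes and pointed in different directions. Above 0 lay 4 of 6, counting Acot2, which was at 0.00. Acot3 read 3.28, 3.33 and 2.88 in liver-null saline livers, against 2.05, 2.44 and 2.51 in wild-type saline livers. After APAP the readings were 2.97, 3.27 and 2.79 in liver-null livers and 1.96, 2.98 and 2.76 in wild-type livers. The groups were apart in saline and overlapped after APAP (difference over both treatments 0.64, adjusted p = 0.0692, and 0.0471 with the set of 4 arrays as a term). Acot4, its neighbour on chromosome 12, read 3.52, 3.46 and 3.40 in liver-null saline livers, 2.77, 2.94 and 3.07 in wild-type saline livers, with 3.33, 3.50 and 3.39 in liver-null APAP livers and 2.82, 3.60 and 3.10 in wild-type APAP livers. Its pattern was alike, apart in saline and overlapping after APAP (difference over both treatments 0.38, adjusted p = 0.113). Acot1, the cytosolic enzyme of the same cluster, read 6.65, 6.86 and 6.76 in liver-null saline livers, against 6.92, 7.35 and 7.64 in wild-type saline livers. With APAP it read 7.23, 7.46 and 7.31 in liver-null livers and 5.96, 7.94 and 7.59 in wild-type livers. The wild-type APAP liver with the lowest Acot1, mouse 12, also had acute phase genes 0.90 above their own means, over 18 such genes. Liver-null saline mouse 4, in which these genes stood highest at 1.27 above their means, had Acot1 at 6.65. That was the lowest reading of its group, below 6.76 and 6.86, and of all livers only mouse 12 read lower. A link between the acute phase genes and Acot1 was not tested. Acot1 had a genotype difference of -0.19 over both treatments, Acot2 of 0.00, Acot8 of -0.07 and Acot12 of 0.24. A dimmer Acot12 probe set gave 0.39 and did not pass with every probe set tested. The mean readings of Acot2, Acot3 and Acot4, like those of Pdk4, Cyp4a31 and Ppargc1a, lay between 2.55 and 3.78, near the array medians of 2.91 to 2.99, where little signal may stand above background and a fold may be understated. Acot2, Acot1, Acot4 and Acot3 are consecutive related genes, and their probe sets may bind each other's transcripts.

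**Figure D3:**
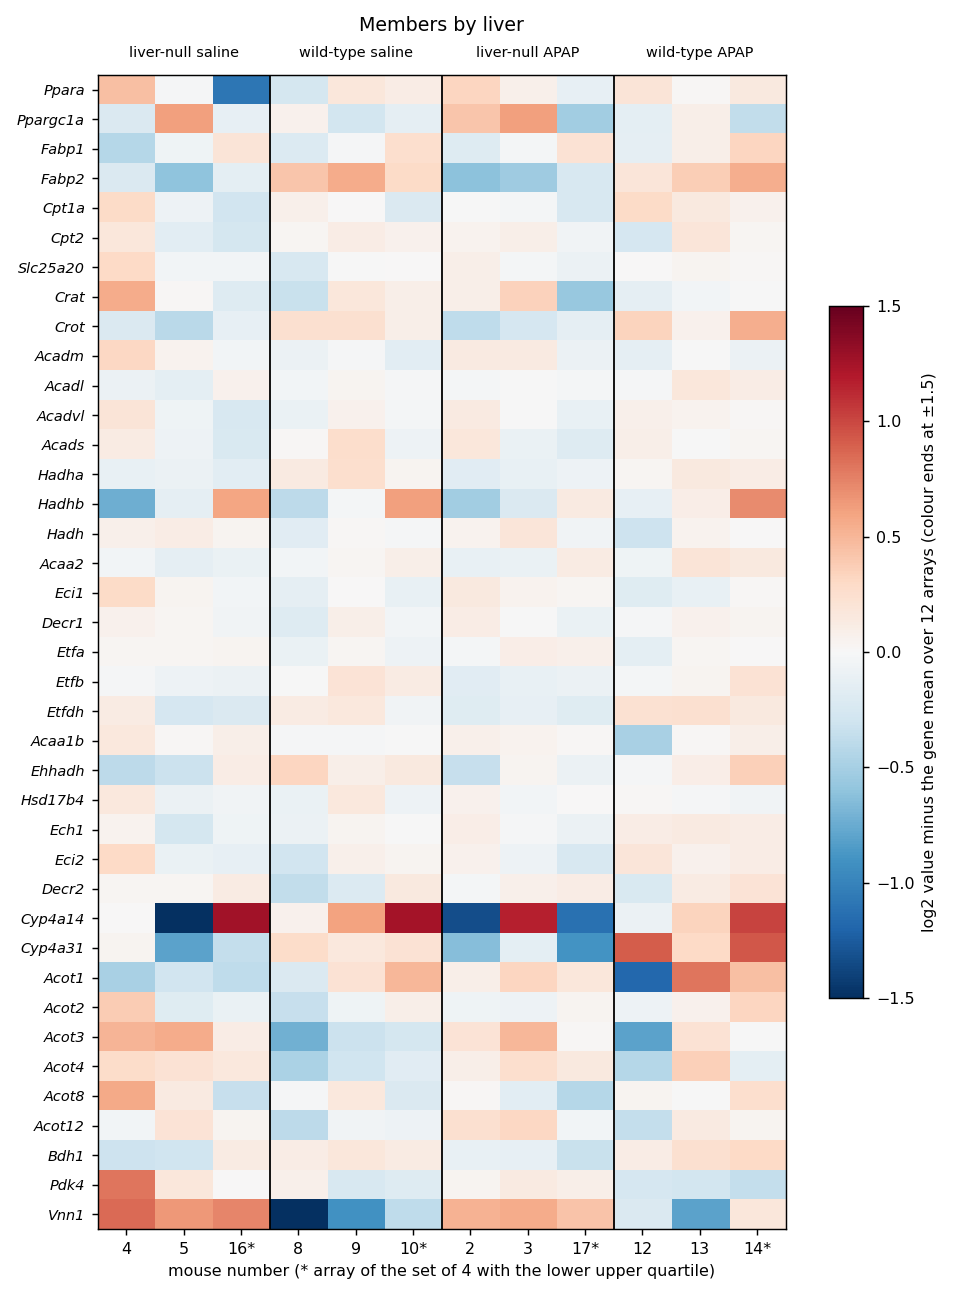
Each of the 39 members (rows, grouped by role) in each of the 12 livers (columns, by group and mouse number), coloured by how far its log2 value lies from that gene's average in all 12 livers, with red higher, blue lower and colours ending at 1.5; stars mark the set of 4 arrays. Fabp2, Crot and Cyp4a31 are blue and Vnn1 is red in the livers labelled liver-null, Cyp4a14 is patchy within groups, and Hadhb is redder on the starred arrays.

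The only member of ketone body metabolism was Bdh1, the mitochondrial dehydrogenase that interconverts acetoacetate and beta-hydroxybutyrate. It read 9.11, 9.13 and 9.55 in liver-null saline livers, against 9.54, 9.60 and 9.55 in wild-type saline livers. In APAP livers the values were 9.32, 9.31 and 9.09 in liver-null livers, against 9.53, 9.67 and 9.73 in wild-type livers. Among liver-null livers only mouse 16, on an array of the set of 4, reached the wild-type readings. The difference of -0.35 did not pass (95% interval -0.56 to -0.15, adjusted p = 0.061) and passed with the set of 4 arrays as a term (adjusted p = 0.0291). A dimmer Bdh1 probe set gave -0.98 (adjusted p = 0.097 with every probe set tested), with mouse 16 at 7.04 and the other 5 livers labelled liver-null at 4.95 to 5.85.

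Vnn1 and Pdk4, both known PPAR-alpha targets in mouse liver, lay above 0. Vnn1 encodes vanin, a pantetheinase that releases pantothenic acid and cysteamine from pantetheine, a breakdown product of coenzyme A. In saline it read 9.60, 9.40 and 9.48 in liver-null livers, against 7.17, 7.85 and 8.37 in wild-type livers. The livers given APAP had 9.28, 9.31 and 9.18 in liver-null livers, against 8.54, 7.95 and 8.93 in wild-type livers. The livers labelled liver-null lay close together and above every wild-type liver, while the wild-type livers were spread over more than 1 log2 unit. Vnn1 was 2.37-fold higher over both treatments (log2 difference 1.24, SE 0.20, 95% interval 0.81 to 1.68, limma adjusted p = 0.00563). It was 3.25-fold higher in saline (1.70, adjusted p = 0.0206) and had a difference of 0.78 after APAP (adjusted p = 0.351). The saline call was lost without any 1 of 4 livers (liver-null saline mouse 4 or 5, wild-type saline mouse 8 or 9). Over both treatments the difference was 1.52 within the 8 other arrays and 0.68 within the set of 4. Pdk4, a kinase that shuts off pyruvate dehydrogenase and so spares glucose, read 3.36, 2.72 and 2.56 in liver-null saline livers, 2.63, 2.31 and 2.37 in wild-type saline livers, with 2.59, 2.69 and 2.64 in liver-null APAP livers and 2.31, 2.28 and 2.19 in wild-type APAP livers. The groups overlapped in saline and were apart after APAP (difference over both treatments 0.41, adjusted p = 0.101, and 0.0471 with the set of 4 arrays as a term). Pdk4 exceeded the level of the low-value filter on 7 of 12 arrays, all 6 labelled liver-null and wild-type saline mouse 8. It was therefore tested only through the livers in which it read higher, which limits what its p can show.

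**Figure D4:**
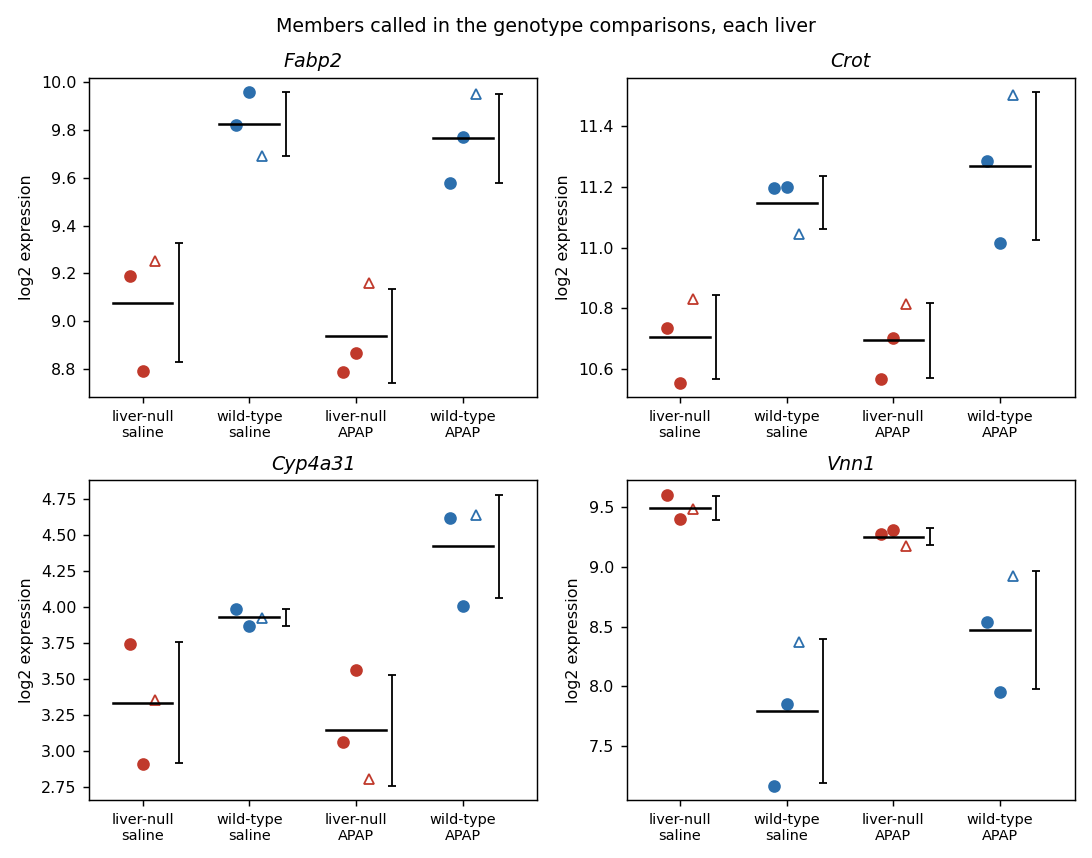
Log2 expression (vertical axis) of Fabp2, Crot, Cyp4a31 and Vnn1 in each liver of the 4 groups (horizontal axis); filled circles are the 8 other arrays and open triangles the set of 4, black lines are group means and the side bars the SD of 3 livers. For Fabp2, Crot and Cyp4a31 the livers labelled liver-null lie below the wild-type livers in both treatments, and for Vnn1 above them, with the wild-type livers spread between 7.17 and 8.93.

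Genes of the same pathways outside the 42 were counted from lists. Of 22 other tested genes of fatty acid oxidation, 4 were higher and 1 lower in livers labelled liver-null over both treatments, beside 4.46% of all genes called in either direction, with a median difference of 0.05 beside -0.01 for all genes. Slc22a5, the carnitine importer of the plasma membrane, averaged 6.22 ± 0.79 in liver-null saline livers, against 4.70 ± 0.68 in wild-type saline livers, with 6.07 ± 0.33 in liver-null APAP livers and 5.28 ± 0.14 in wild-type APAP livers (SD, n = 3 each). All 6 livers labelled liver-null lay above all 6 labelled wild-type, and Slc22a5 was higher by 1.15 over both treatments (SE 0.27, adjusted p = 0.0358). Pex11a, a peroxisome division factor, averaged 9.38 ± 0.51 in liver-null saline livers, against 8.34 ± 0.33 in wild-type saline livers, with 9.39 ± 0.26 in liver-null APAP livers and 8.54 ± 0.17 in wild-type APAP livers. Its genotype groups did not overlap, and it was higher by 0.94 (SE 0.18, adjusted p = 0.0117). Acad10, of the acyl-CoA dehydrogenase family, was higher by 0.88 (SE 0.14, adjusted p = 0.00563). Acox2, a peroxisomal oxidase for branched chains and bile acid intermediates, was higher by 0.53 (SE 0.08, adjusted p = 0.00517), and by 0.78 after APAP (adjusted p = 0.0103). Amacr, the racemase that prepares branched chains for the same route, was lower, at 8.54 ± 0.33 in liver-null saline livers and 9.57 ± 0.16 in wild-type saline livers (difference over both treatments -0.86, adjusted p = 0.0184).

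The same background of 4.46% holds for the shorter lists. Of 6 tested ketone body genes besides Bdh1, only Aacs passed; it encodes the cytosolic acetoacetyl-CoA synthetase, which uses acetoacetate for lipid synthesis rather than making ketone bodies, and it was lower (log2 difference -1.16, SE 0.21, adjusted p = 0.00976). Among 28 further PPAR-alpha targets 1 was higher, the fatty acid transporter Cd36 (2.33, SE 0.16, adjusted p = 6.8e-05), and 1 was lower, the acyl-CoA synthetase Acsl5 (-0.43, SE 0.10, adjusted p = 0.033), with a median of 0.00. Slc22a5 and Pex11a were counted above under fatty acid oxidation and were not on this list, so its count depends on how the lists were drawn. Of 13 receptor partners and coregulators only Pparg, a relative of Ppara that also regulates Cd36, passed, at 1.79 (SE 0.19, adjusted p = 0.00047).

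The markers of other liver cells gave few calls beside these differences. Over both treatments 0 of 6 hepatocyte, 0 of 7 Kupffer and myeloid, 0 of 6 endothelial, 0 of 2 lymphocyte, 0 of 2 cholangiocyte and 0 of 3 adipocyte markers tested passed at a limma adjusted p under 0.05. Pdgfrb, 1 of 7 stellate cell and fibroblast markers, was lower (log2 difference -0.62, adjusted p = 0.0248), and Cela1, 1 of 3 tested acinar pancreas markers, was lower too (-1.77, adjusted p = 0.000223), while Cela2a, Cpa1 and Prss2 stayed below the array median on all arrays. The mean level of the 4 acinar markers on the array was 3.20 to 3.42 in livers labelled liver-null and 3.67 to 3.87 in wild-type livers. The erythroid marker Alas2, which was the only one tested of its list, averaged 7.60 ± 0.59 in liver-null saline livers, against 8.64 ± 0.54 in wild-type saline livers, with 7.68 ± 0.17 in liver-null APAP livers and 8.30 ± 0.39 in wild-type APAP livers (SD, n = 3 each). Every liver labelled liver-null was below every wild-type liver for Alas2, and the difference of -0.83 did not pass (adjusted p = 0.0676). The mean of the 2 erythroid markers on the array was 4.52 to 5.02 in livers labelled liver-null and 5.10 to 5.59 in wild-type livers. The mean of the 7 stellate markers was 4.39 to 4.87 in livers labelled liver-null and 4.81 to 5.25 in wild-type livers, and the part of these markers in the members' differences was not tested. In whole liver RNA, fewer cells of a type and less RNA per cell cannot be told apart.

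The second question was whether APAP changed these genes within 8 h. No member passed in either genotype or over both, and neither did any of the 8469 genes tested (0.0%) by limma at an adjusted p under 0.05. At an unadjusted p under 0.05, 0 of 39 members stood out in livers labelled liver-null, beside 0.697% of all genes. In wild-type livers 1 member, Vnn1, did so, beside 1.69% of all genes. Over both genotypes 0 members did so, beside 1.2%. The members' differences over both genotypes ran from -0.21 for Pdk4 to 0.22 for Vnn1, with a median of 0.03 beside 0.00 for all genes. For 35 of the 39 the 95% interval stayed within 1.5-fold either way, and for 38 within 2-fold. The exception was Cyp4a14, with a difference of -0.01.

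Differences by role were small. Over both genotypes the member with the largest difference was Ppara among the regulators (0.21), Fabp2 among the binding proteins (-0.10), Crat in the carnitine shuttle (-0.10), Acaa2 in mitochondrial beta-oxidation (0.06), Etfb in electron transfer (-0.04) and Ech1 in peroxisomes (0.11). It was Cyp4a31 among the omega-hydroxylases (0.15), Acot1 among the thioesterases (0.22) and Vnn1 among the remaining targets (0.22), while Bdh1 stood at 0.03. Acaa2 read 11.45, 11.46 and 11.68 in liver-null APAP livers, against 11.51, 11.42 and 11.45 in liver-null saline livers. It read 11.49, 11.75 and 11.70 in wild-type APAP livers, against 11.52, 11.59 and 11.64 in wild-type saline livers. The APAP and saline livers overlapped in both genotypes, and the readings of the other members named here are given above.

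**Figure D5:**
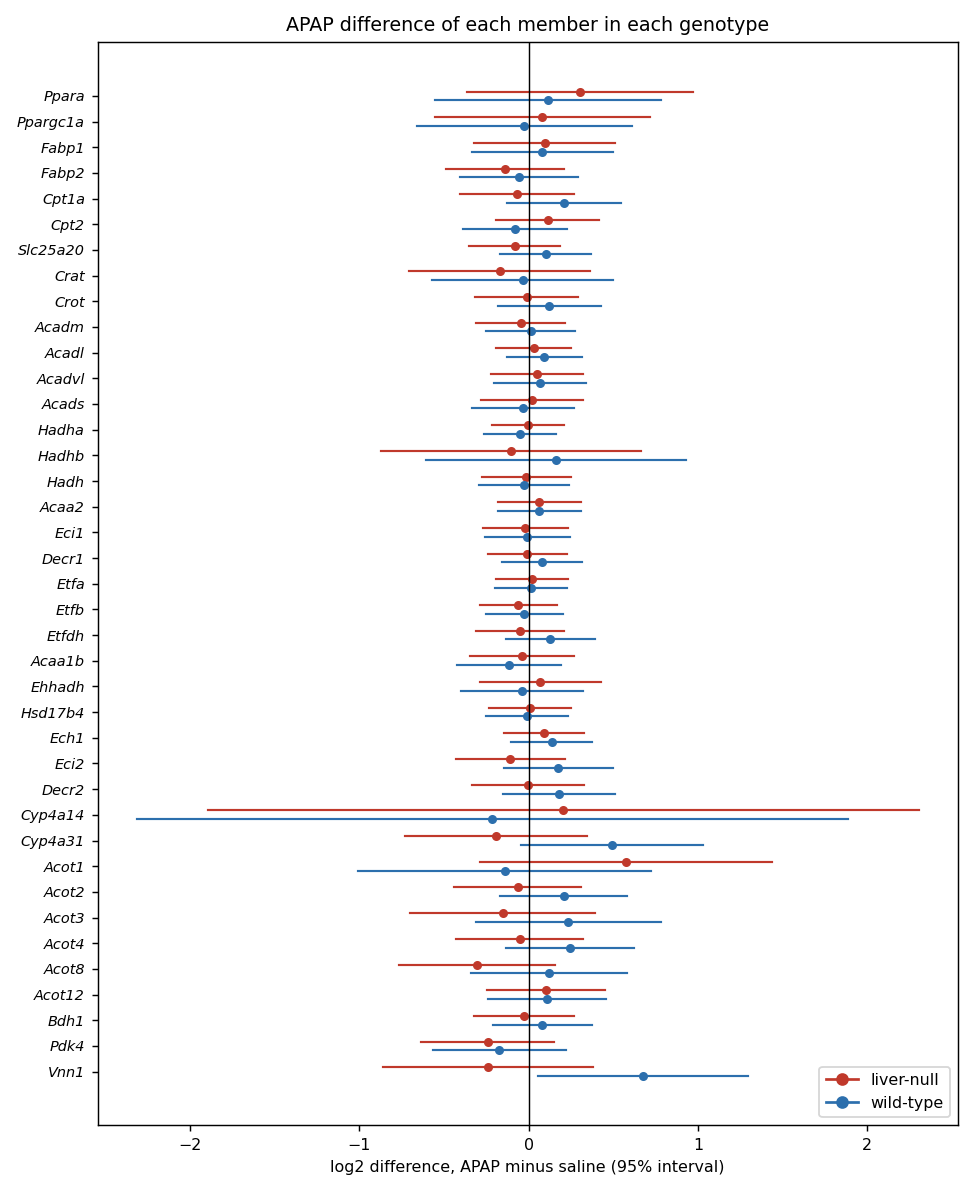
Difference between APAP and saline livers for each of the 39 members, in log2 units on the horizontal axis, in mice labelled liver-null (red) and wild-type (blue), with 95% intervals as bars. The interval that does not cross 0 is that of Vnn1 in wild-type livers at 0.68, which did not pass after adjustment.

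The APAP and saline groups did not overlap for 3 members in livers labelled liver-null (7.69%, beside 4.89% of all genes): Acot1 was above its saline readings, and Etfb and Vnn1 were below. In wild-type livers they did not overlap for 3 others (7.69%, beside 5.02%): Ech1 and Cyp4a31 were above and Pdk4 was below. No member was apart in both genotypes, and over both genotypes together 0 of 39 members were apart, beside 0.0354% of all genes. Vnn1 differed by 0.68 between APAP and saline in wild-type livers (limma adjusted p = 0.9999) and by -0.24 in livers labelled liver-null. The difference between these 2 responses, tested as an interaction, was -0.92 (SE 0.40, limma adjusted p = 0.999). Acot1 differed by 0.58 in livers labelled liver-null and by -0.14 in wild-type livers, with an interaction of 0.72 (adjusted p = 0.999). Cyp4a31 differed by -0.19 in livers labelled liver-null and by 0.49 in wild-type livers, with an interaction of -0.69 (adjusted p = 0.999). No interaction passed among the 39 members or the 8469 genes (0.0%) in limma; at an unadjusted p under 0.05 there was 1 member, Vnn1, beside 1.29% of all genes. A genotype difference that passed under one treatment alone, as for Vnn1 in saline or Cyp4a31 after APAP, was therefore not shown to depend on the treatment.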

How the data were processed

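Gene expression was measured in liver RNA of 12 mice, 3 in each of 4 groups, on Affymetrix arrays. The authors deposited log2 values for 22690 probe sets, obtained with RMA per the submitters' processing notes. Not given in the sources used here are the RMA version, the background model and whether the 12 arrays were normalized as 1 set. Detection calls were not used. Arrays give no depth, and their number limits the precision. Array medians were 2.91 to 2.99, correlations between arrays 0.986 to 0.998, and at most 0.0088% of values were equal in any pair. The series text calls the samples biological replicates.

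Gene names came from the platform annotation, which can be old: 20380 probe sets have 1 symbol, 691 several, 1555 none listed and 64 are controls. Each gene was read on its 1-symbol probe set with the highest mean (12393 genes) and tested where it exceeded the 40th percentile of its array on at least 3 arrays; 8469 genes were kept and 3924 removed. Values were not normalized again. limma 3.58.1 in R 4.3.3 fitted 4 group means over all 12 arrays (8 residual degrees of freedom; eBayes, default settings), and a gene was called at a two-sided p under 0.05 after Benjamini-Hochberg adjustment over 8469 genes. Every adjusted p comes from this fit unless stated. The set of 4 arrays was defined at the largest gap in the upper quartiles. The steps were tested on simulated data with independent noise and no array set, so that test does not check the calls on these arrays. Promoter windows are RefSeq's, matched by symbol.

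The members, lists and tests were chosen with earlier results of these data known. Every reading was given for members called in any comparison and for the member of each role with the largest genotype or APAP difference; from each further list, the called genes. Hadha, Fabp1, Cpt1a, Acot4, Pdk4 and the second probe sets of Decr1, Bdh1, Hadhb, Fabp1 and Acot12 were added after their values were seen. Alternatives covered the array set, filters, probe set choice, normalization, array weights, the eBayes settings, the arrays in the fit and leaving out each array.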

Additional observations from a re-analysis of the deposited data

How the results depend on the processing

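No call reversed under any alternative. Over both treatments, Crot, Fabp2 and Vnn1 passed under all 21 alternatives, and Cyp4a31 under 20, failing within the 8 arrays outside the set of 4 (-0.80, adjusted p = 0.0886). Leaving out 1 array at a time gave -0.57 to -0.45 for Crot, -1.04 to -0.83 for Cyp4a31, -0.84 to -0.72 for Fabp2 and 1.09 to 1.39 for Vnn1. Vnn1 in saline passed under 17 of 22 (1.39 to 1.99 without 1 array, adjusted p up to 0.0883). After APAP, Cyp4a31 and Fabp2 each passed under 11 of 22 (-1.49 to -1.11 and -0.94 to -0.73 without 1 array; adjusted p up to 0.258 and 0.211); Cyp4a31 failed without liver-null saline 16, any wild-type saline liver, liver-null APAP 2 or 17, or wild-type APAP 12 or 14, and Fabp2 without liver-null saline 4, any wild-type saline liver, liver-null APAP 2 or 3, or any wild-type APAP liver. The cause was not tested.

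The number of members called over both treatments, 4, became 9 with the array set as a term (882 genes against 378), 12 with array weights (1409 genes), 7 with eBayes trend and robust settings (422 genes), 6 with quantile normalization (583 genes), and 4 to 6 without 1 array (208 to 416 genes). In saline, 1 became 2 with the array set (243 genes against 54), 0 with only the arrays of the 2 groups (19 genes), 13 with array weights (1323 genes), 2 with trend and robust settings (121 genes), 2 within the 8 arrays (117 genes), and 0 to 1 without 1 array (10 to 92 genes). After APAP, 2 became 3 with the array set (185 genes against 65), 3 with trend and robust settings (98 genes), 0 with only the arrays of the 2 groups (39 genes), 0 within the 8 arrays (44 genes), and 0 to 2 without 1 array (21 to 60 genes). With array weights, Acot3, Bdh1, Ehhadh, Etfb, Etfdh, Hadha, Pdk4 and Ppargc1a joined the 4 over both treatments. In saline the weights called the same members, except that Acot4 and Cyp4a14 passed and Ppargc1a did not. APAP and interaction counts stayed at 0 members under every alternative. No setting moved the median of all genes by 0.1. Apart from the set of 4 arrays used as a term, no pairing of arrays between groups was fitted, because no replicate number is shared between groups. Hadhb and Fabp1 rose in the order of mouse number in every group. A term for that order was not fitted, so the errors of these genes include this spread. Probe sets near the array median limit what Pdk4, Acot2, Acot3, Acot4, Cyp4a31 and Ppargc1a can show.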
